A study of Mus musculus with 14 samples.

Results

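The H3K36me3 peak list of wild-type (WT) mouse spermatocytes was set against the RNA of the same cell type, gene by gene. All 19725 autosomal genes of the 20626 genes in the deposited tables entered, sorted by gene length and by the mean FPKM (fragments per kilobase of transcript, scaled to the mapped total) of the 2 WT spermatocyte RNA libraries. For each gene, the share of its body, from start site to end, that lay under a peak was computed, with introns included. From this came 2 kinds of exception: 92 genes of at least 20 FPKM with no peak, and 7 genes under 0.1 FPKM with at least 50% of the body covered. The cells were pachytene and diplotene spermatocytes (PD), sorted by FACS on Hoechst and propidium iodide staining from testes of adult C57BL/6J mice of WT genotype. Round spermatids (RS) of the same strain and genotype, and PD and RS cells of the genotype Setd2KO, served for comparison. The driver of the deletion and the part of Setd2 removed are not given in the sources used here. Each of the 4 groups had 2 polyadenylated RNA libraries and 1 H3K36me3 peak list.

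H3K36me3, trimethylated lysine 36 of histone H3, is placed by Setd2, an enzyme that travels with elongating RNA polymerase II. The mark is therefore known as one of transcribed gene bodies, low at the start site and high towards the end of the gene. Its readers include Psip1, the MRG-domain protein Morf4l1 and the PWWP-domain DNA methyltransferases. Pachytene and diplotene are late stages of meiotic prophase, at which spermatocytes transcribe many genes of meiosis and of the later sperm, while round spermatids are the haploid cells that follow.

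The PD WT RNA libraries held 51.1 and 51.7 megareads, worked back from the whole-read steps of the FPKM values, so that 0.1 FPKM stood for 5.11 and 5.17 reads per kilobase. They correlated at r = 0.996 across autosomal genes on log2(FPKM + 1), and 17692 genes (89.7%) fell into the same FPKM class in both. The second library read higher, with a median fold of 1.16 among genes of at least 1 FPKM. The PD WT list held 44358 peaks over 238 megabases, with a median width of 2822 bases and a lowest score, given by the authors, of 50. With 1 list, the cover of a gene has no replicate check, and its intervals below are exact 95% binomial intervals for counting error over genes only. Whether the paired RNA libraries of a group stem from different mice is not stated, so the p-values below describe library-to-library spread, possibly technical only.

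The label spermatocyte was checked against marker genes. All 19 autosomal spermatocyte markers were expressed, from 5.02 to 1663 FPKM, and all 19 had a peak. Ldhc, the germ-cell lactate dehydrogenase, stood at 1364 and 1962 FPKM in the 2 libraries and was covered over 100% of its body. The summed FPKM of these markers was 2892 and 3740 in PD WT. In RS WT it was 2898 and 2825, so this sum does not set PD apart from RS. The PD WT sum was 4.12 and 4.24 for 13 Sertoli cell markers and 4.27 and 4.11 for 8 Leydig cell markers. For 8 myoid markers it was 10.1 and 9.84, for 9 macrophage 2.78 and 3.23, and for 9 blood and endothelium markers 0.942 and 1.59. The 15 round spermatid markers summed to 83.3 and 103 FPKM in PD WT, against 2010 and 1882 in RS WT, and their median PD WT level was 1.56% and 2.65% of that in RS WT. The 13 elongating spermatid markers summed to 244 and 228 FPKM, against 6076 and 5983 in RS WT. The 15 spermatogonia markers summed to 161 and 208 FPKM, nearly all from Dmrtb1 (134 and 178) and Id4 (18.9 and 21.1), which were covered over 96.4% and 100%, while 12 of the 15 were under 1 FPKM.

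Peaks followed RNA level steeply between 0.1 and 5 FPKM and levelled off above. Of 7062 genes under 0.1 FPKM, 155 had a peak (2.19%, interval 1.87% to 2.56%). The share was 28.5% of 3630 genes at 0.1 to 1 FPKM, 75.9% of 3349 at 1 to 5, 94.9% of 3326 at 5 to 20, 96.2% of 1995 at 20 to 100 and 95.6% of 363 at 100 FPKM and over. In steps of doubling RNA it went from 44.4% at 0.5 to 1 FPKM to 64.3%, 81.1% and 92.4% in the next 3 steps. From 8 to 256 FPKM it lay between 95.1% and 96.5%. Among 2732 genes listed at 0 in both libraries, 6 had a peak (0.220%, interval 0.0806% to 0.477%).

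How much of the body was covered went on growing after the share of marked genes had levelled off. The median gene of 1 to 5 FPKM was covered over 39.4% of its length, that of 5 to 20 FPKM over 87.1%, that of 20 to 100 FPKM over 93.5% and that of 100 FPKM and over 97.4%. Of the 2358 genes of at least 20 FPKM, 1454 (61.7%) were covered over 90% or more and 281 over the whole body. A further 635 were covered over 50% to 90%, 177 over less than 50%, and 92 not at all. Across the 9033 genes of at least 1 FPKM, FPKM and percent covered had a Spearman rho of 0.52, and within the 7 length classes of the heat maps rho lay between 0.48 and 0.59. These are descriptions across genes, which share the 2 RNA libraries and the 1 peak list.

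Gene length mattered at both ends. At 5 to 20 FPKM a peak was found over 65.7% of 102 genes under 2 kb (interval 55.6% to 74.8%), against 91.1% of 292 genes of 2 to 5 kb and 98.0% of 305 genes of 100 kb and over. At 1 to 5 FPKM the shortest class had a peak in 32.3% of 161 genes. The longest genes nearly always had a peak but were covered in part. Genes of 100 kb and over had a median cover of 58.9% at 5 to 20 FPKM and 66.8% at 20 to 100 FPKM, where genes of 10 to 20 kb had 90.4% and 96.1%. Of the 177 highly expressed genes covered over less than 50%, 42 were of 100 kb or more, a class of 165 genes at this level.

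**Figure D1:**
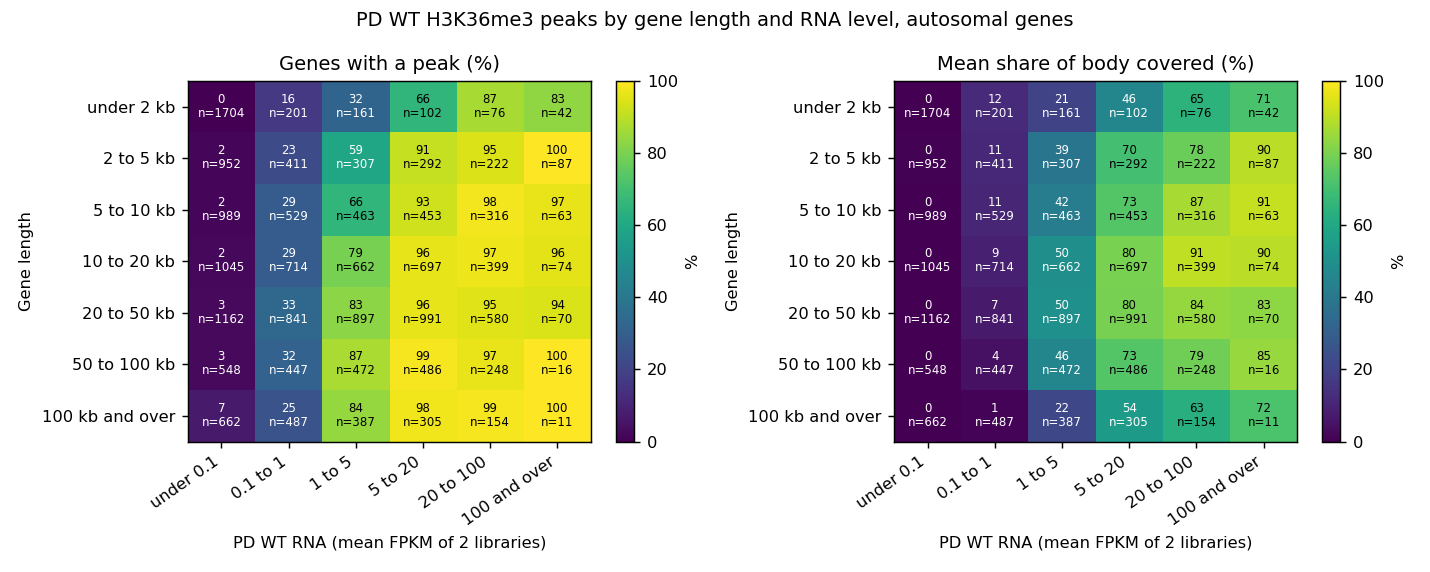
Share of autosomal genes with a PD WT H3K36me3 peak (left) and mean share of the gene body covered (right), in percent by colour and number, for each class of gene length (rows) and mean PD WT FPKM (columns), with the number of genes in each cell. Under 0.1 FPKM at most 7.10% of genes have a peak in any length class, and from 5 FPKM on the lowest shares are those of genes under 2 kb.

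The covered length, summed over a gene's peaks, was largest for Tbc1d5 among the genes with most cover in each class from 1 FPKM on. Tbc1d5, a Rab GTPase regulator at 12.6 and 14.7 FPKM, was covered over 387 of its 446 kb. At 20 to 100 FPKM the 3 genes with most cover were Bbs9, a subunit of the BBSome of cilia (286 of 413 kb), the centriole protein gene Cep128 (281 of 386) and Nbas (273 of 315). At 5 to 20 FPKM Nbea, neurobeachin, and Sgms1, a sphingomyelin synthase, followed with 273 of 559 and 247 of 266 kb. At 100 FPKM and over, Dnah8, an axonemal dynein heavy chain at 291 and 303 FPKM, had 196 of 248 kb under peaks, and Pcbp3, an RNA-binding protein at 89.4 and 113 FPKM, 194 of 200 kb. Low RNA did not preclude wide cover. Erc1, an active-zone scaffold protein at 3.65 and 3.61 FPKM, had 232 of 277 kb under peaks. Clasp1, a microtubule-binding protein at 4.57 and 4.69 FPKM, had 152 of 220 kb.

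Along the body, cover was lowest at the start, and it began nearer to the start site the more RNA the gene gave. In genes of at least 10 kb the mean cover of bin 1 of 10 equal bins was 23.8% at 1 to 5 FPKM, 54.9% at 5 to 20, 72.1% at 20 to 100 and 83.2% at 100 FPKM and over. In bin 10, at the end, it was 55.8%, 81.4%, 85.3% and 85.3%. Among such genes with a peak, the first covered base lay a median of 2764 bases after the start site at 1 to 5 FPKM, 797.5 at 5 to 20 and 297 at 20 to 100. At 100 FPKM and over that median was 0, since the start site itself was covered in 53.0% of these genes, against 6.44% at 1 to 5 FPKM.

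By length, the uncovered stretch at the start was longer in longer genes but a smaller share of the longest. For genes of at least 5 FPKM with a peak, the median first covered base lay 115.5 bases in for genes under 2 kb, 364 for 2 to 5 kb, 501 for 5 to 10 kb, 566 for 20 to 50 kb and 731 for 100 kb and over. As a share of the body this was 7.68%, 10.9%, 7.35%, 1.84% and 0.503%. Genes of 100 kb and over had no low start. Their mean cover was 60.9% in bin 1, 53.5% in bin 6 and 62.7% in bin 10.

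**Figure D2:**
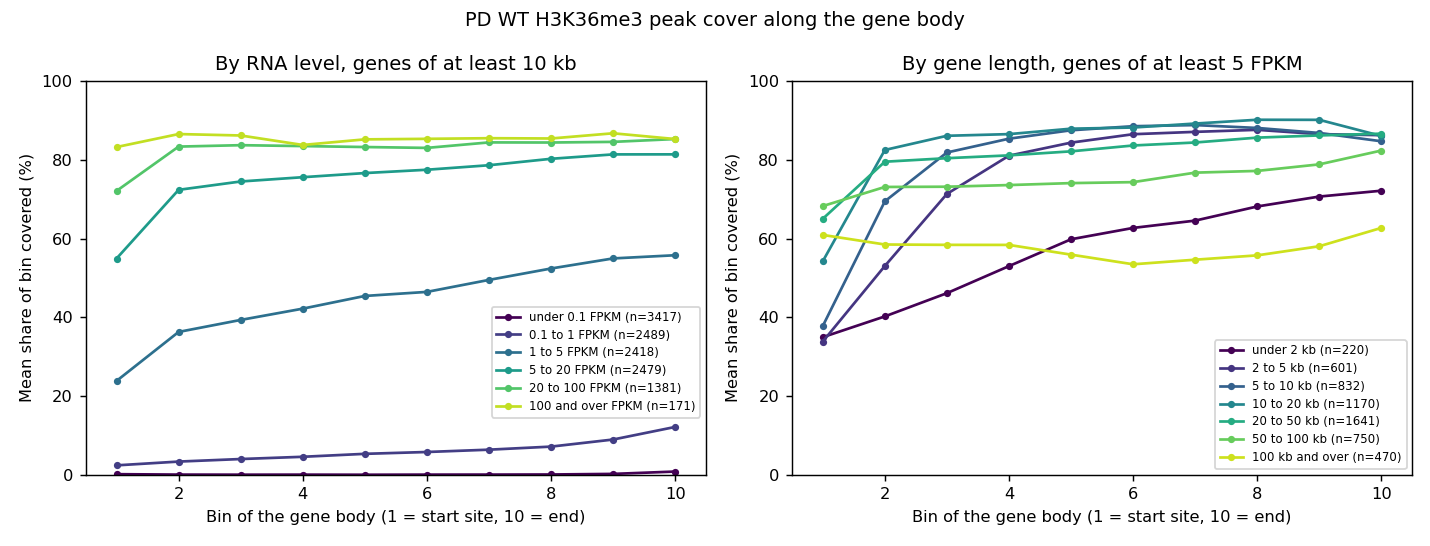
Mean percent covered in each of 10 equal bins of the gene body, by PD WT peaks, from the start site (bin 1) to the end (bin 10), for autosomal genes of at least 10 kb by FPKM class (left) and for genes of at least 5 FPKM by length class (right). At 1 to 5 FPKM the line climbs from 23.8% to 55.8%, at 100 FPKM and over it starts at 83.2%, and genes of 100 kb and over stay between 53.5% and 62.7%.

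Cover ran on past the end of the gene more than it reached ahead of the start. This was measured in genes with a peak that lay at least 10 kb from any other gene of the tables, so that a neighbour's body could not fill the flank. For 550 such genes of at least 20 FPKM, mean cover was 25.5% over the 5 kb before the start, 83.4% over the body and 53.1% over the 5 kb after the end. The downstream flank was touched by a peak in 511 of them (92.9%) and the upstream flank in 293 (53.3%). At 1 to 5 FPKM the 747 isolated genes with a peak had a mean cover of 14.4% upstream and 26.4% downstream.

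Promoter composition went with the mark among genes of low RNA. The ratio of observed to expected CpG in the 300 bases around the start site was taken from RefSeq promoters (GRCm38.p6), matched by symbol for 15640 autosomal genes. At 1 to 5 FPKM a peak lay over 50.3% of 545 genes with a ratio under 0.4 (interval 46.0% to 54.6%), 77.0% of 820 genes at 0.4 to 0.75 and 86.4% of 1311 genes at 0.75 and over. At 5 to 20 FPKM the shares were 81.4%, 94.5% and 96.8%, and at 20 FPKM and over 94.4%, 96.1% and 96.6%. Within the 1 to 5 FPKM class the CpG-rich genes were also longer, with a median of 27282 against 12064 bases, and had more RNA, with a median of 2.74 against 2.07 FPKM. What part these differences have in the shares was not tested.

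Gene families were read in the same way. Of all autosomal genes 46.4% had a peak, against 2.19% under 0.1 FPKM, 88.2% at 1 FPKM and over and 96.1% at 20 FPKM and over. Among genes of the cell's basic machinery, a peak lay over 77 of 80 cytosolic ribosomal protein genes, 74 of 77 genes of oxidative phosphorylation and 35 of 39 proteasome genes. In the proteasome all 35 members of at least 1 FPKM had a peak. Ppia, the cyclophilin A gene, stood at 333 and 447 FPKM with 92.7% covered.

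Most genes of meiosis and of the piRNA pathway were marked as well. In the list of the synaptonemal complex and recombination 26 of 31 genes had a peak, led by Syce1, a central element protein (144 and 205 FPKM, 98.8% covered) and Stag3, the meiotic cohesin subunit (116 and 139 FPKM, 99.0%). The piRNA list had 16 of 18, with Mael at 305 and 460 FPKM and 82.4% covered, and Piwil1, the PIWI protein of pachytene spermatocytes, at 186 and 148 FPKM and 100%. Its exception at high RNA was Pld6, the mitochondrial phospholipase of piRNA biogenesis, described below. Meiotic division had 17 of 20, and writers, erasers and readers of H3K36 methylation had 21 of 26, with Psip1 at 141 and 164 FPKM and 99.6% covered.

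Among genes of the later sperm, those of flagellum (82.6%) and glycolysis (80%) had a peak about as often as synaptonemal complex and recombination genes (83.9%). Among acrosome genes the share was 57.1%, with an interval of 34.0% to 78.2%. That interval overlaps those of flagellum (61.2% to 95.05%), glycolysis (51.9% to 95.7%) and synaptonemal complex and recombination genes (66.3% to 94.5%). Sperm flagellum genes had a peak in 19 of 23, acrosome genes in 12 of 21 and sperm glycolysis genes in 12 of 15, and all 10 acrosome genes and all 14 flagellum genes of at least 20 FPKM had a peak. Crisp2, a secretory protein of acrosome and flagellum, stood at 412 and 619 FPKM with 92.2% covered. Acrbp, the proacrosin-binding protein, stood at 152 and 192 FPKM and was covered over its whole body. Prm1, Prm2 and Tnp2, which encode the protamines and a transition protein of sperm chromatin, were wholly covered at 43.6 and 43.02, 57.7 and 38.5, and 38.2 and 38.04 FPKM. Their RS WT means were 927, 930 and 1000.1 FPKM, and there Prm1 and Prm2 were covered over 100% and Tnp2 over 6.52%. These genes form 1 cluster on chromosome 16 (mm9, 10788028 to 10796916), so their cover in PD WT is not that of separate regions. Tnp1, at a like PD WT level, had no peak and is described below. Of the 15 round spermatid markers only 4 had a peak. The one with most RNA was Acr, the proacrosin gene, at 45.0 and 48.1 FPKM and covered over 100%, while Tssk1, a testis kinase, had 6.12 and 8.70 FPKM and no peak, and Tex33 5.23 and 8.76 FPKM and no peak.

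Receptor and defensin families that are mostly silent had next to no cover. A peak lay over 5 of 1112 olfactory receptor genes (0.450%, interval 0.146% to 1.05%), 1 of 332 vomeronasal receptor genes and none of 41 beta-defensin genes (upper limit 8.60%). Olfr1444, one of the olfactory receptors marked, was wholly covered and stood at 2.75 and 2.09 FPKM, whereas Olfr613, with more RNA at 11.5 and 9.58 FPKM, had no peak. The Sertoli cell and the blood and endothelium markers had no peak over any of 13 and 9 genes. Other somatic lists had some. Among the myoid markers Tagln, a smooth muscle actin-binding protein at 2.31 and 2.18 FPKM, was covered over 76.0%, and Mylk, myosin light chain kinase at 5.11 and 4.88 FPKM, over 21.1%. The macrophage marker Cd68 was covered over 97.2% at 0.329 and 0.372 FPKM. Star, the steroidogenic cholesterol transporter in the Leydig cell list, was wholly covered in PD WT and in RS WT at 3.28 and 2.80 FPKM in PD WT.

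Of 374 zinc finger genes with Zfp symbols, 219 had a peak (58.6%, interval 53.4% to 63.6%). Of the 211 with at least 1 FPKM it was 184, and of the 20 with at least 20 FPKM 17, the exceptions being Zfp488, Zfp991 and Zfp992. Among replication-type histone genes, which are short and lack introns, 9 of 67 had a peak, and all 9 were among the 54 with at least 1 FPKM. Their median length was 470 bases. Of all genes under 2 kb, 32.3% had a peak at 1 to 5 FPKM and 85.6% at 20 FPKM and over. At 20 FPKM and over 3 of 8 of these histone genes had one. The one with most RNA, the testis histone H2B gene Hist1h2ba, stood at 1030.0 and 1453 FPKM and was covered over 74.3%. Histone genes make up 5 of the 92 high genes with no peak and 3 of the 2266 with one.

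The 92 highly expressed genes with no peak are 3.90% of the 2358 genes of at least 20 FPKM. Their RNA was not marginal, with a median of 44.2 FPKM, against 39.8 for those with a peak, and 83 of them reached 20 FPKM in both libraries. Just inside the threshold were Etnk1, Thoc1 and Tmem147 at 20.8, 20.9 and 21.2 FPKM, and just outside it Hist1h2bj, Tmem261 and Trappc2l at 19.8, 19.1 and 18.6. On the side of cover, the next genes were Tfdp1, Fgfr1op2 and Dnajc7, with 0.494%, 0.925% and 1.15% covered. Nor were they short as a group. Their median length was 14936 bases against 17631, and 45.7% were of 20 kb or more, against 45.8% of the genes with a peak.

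What the 92 shared beyond the rule was read as counts beside the 2266 genes with a peak. Bodies under 2 kb made up 17 (18.5%, interval 11.1% to 27.9%) against 4.46%. Another gene of the tables overlapped 25 (27.2%) against 12.05%. A promoter that is nearly a copy of another gene's was found for 12 of the 73 with a RefSeq promoter (16.4%, 8.79% to 27.0%) against 13 of 1856 (0.700%). A near copy here is a promoter with at least 50% of its 25-base words in another gene's promoter. Some of the 92 are overlapping models of 1 locus, such as Hist2h2aa1 and Hist2h2aa2, both near copies. The intervals here take each model as separate, so they do not count loci. The RS WT list had a peak over 39 of the 92 (42.4%, 32.1% to 53.1%) against 93.1%. The genes fell into 4 groups, taken in this order: 29 with at least 50% covered in RS WT, 12 with a near-copy promoter or the same values as another gene, 10 others under 2 kb, and 41 with none of these features.

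**Figure D3:**
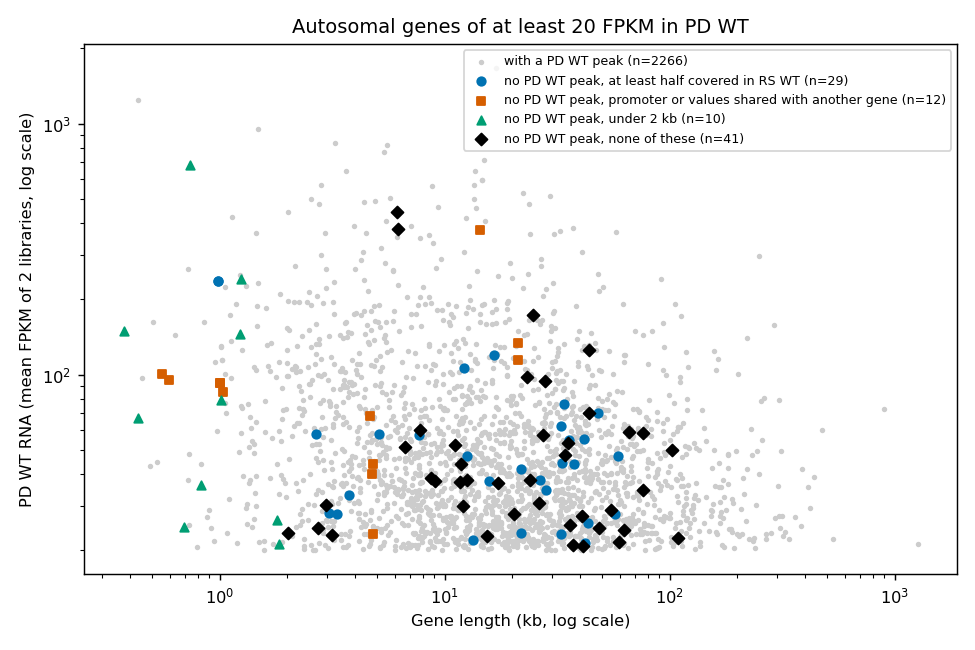
Mean PD WT FPKM against gene length, both on log scales, for autosomal genes of at least 20 FPKM: grey points have a PD WT peak, and the coloured symbols are the 92 genes with none, split by feature. The 92 reach from 375 to 108874 bases, while the longest gene with a peak has 1265327. The 10 short genes lie towards the left, and the 12 near copies, with a median of 4713.5 bases, reach up to 21201.

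Near copies are given first because reads of such genes can be assigned to either copy, in RNA and ChIP alike, so both of their values are uncertain. Tcp10a and Tcp10b, t-complex genes of the testis, are such a pair on chromosome 17 (mm9, plus strand, 7529009 to 7550209 and 13253977 to 13275092). They stood at 110 and 119, and 106 and 161 FPKM, with no peak in PD WT or RS WT. The bases before the start site show how alike the pair is (RefSeq, GRCm38.p6, plus strand, chr17:7324410-7324659 and chr17:13060861-13061110). Capitals mark words of 25 bases that the pair shares, 94.0% of the 250 bases in each:
Tcp10a: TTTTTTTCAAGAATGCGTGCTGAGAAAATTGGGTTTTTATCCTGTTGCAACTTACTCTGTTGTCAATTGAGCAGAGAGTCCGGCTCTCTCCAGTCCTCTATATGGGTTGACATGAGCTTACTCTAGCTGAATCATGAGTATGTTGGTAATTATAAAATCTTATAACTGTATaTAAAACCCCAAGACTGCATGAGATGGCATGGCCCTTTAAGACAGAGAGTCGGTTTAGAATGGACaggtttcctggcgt
Tcp10b: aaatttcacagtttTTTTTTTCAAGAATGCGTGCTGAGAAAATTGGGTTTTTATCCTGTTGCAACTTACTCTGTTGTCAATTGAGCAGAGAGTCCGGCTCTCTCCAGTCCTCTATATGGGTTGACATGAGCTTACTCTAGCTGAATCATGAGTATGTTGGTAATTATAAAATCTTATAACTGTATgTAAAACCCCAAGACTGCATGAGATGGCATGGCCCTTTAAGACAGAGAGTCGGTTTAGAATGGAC

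Dynlt1c and Dynlt1f, which encode a light chain of cytoplasmic dynein, did not meet the rule for near copies, with 33.7% of the 25-base words of the Dynlt1c promoter in another gene's, and count among the 41 genes with none of the features. They are shown for their wide replicate spread. In mm9 the tables place them over one another on the minus strand of chromosome 17 (6648842 to 6654956 and 6648833 to 6655064). Dynlt1c stood at 205 and 683 FPKM and Dynlt1f at 176 and 584, a fold of 3.33 between the libraries in each. In GRCm38.p6 their promoters lie at separate places, on opposite strands (chr17:6601529-6601778, plus, and chr17:6655940-6656189, minus), and 55.6% of the bases lie within 25-base words that the pair shares, a looser measure than the share of words, again in capitals:
Dynlt1c: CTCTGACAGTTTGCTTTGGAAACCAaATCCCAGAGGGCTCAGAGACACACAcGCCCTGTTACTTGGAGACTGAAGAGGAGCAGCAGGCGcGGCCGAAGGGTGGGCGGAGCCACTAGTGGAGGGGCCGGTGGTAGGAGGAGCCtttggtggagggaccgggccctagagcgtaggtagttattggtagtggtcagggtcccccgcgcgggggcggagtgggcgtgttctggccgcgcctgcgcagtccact
Dynlt1f: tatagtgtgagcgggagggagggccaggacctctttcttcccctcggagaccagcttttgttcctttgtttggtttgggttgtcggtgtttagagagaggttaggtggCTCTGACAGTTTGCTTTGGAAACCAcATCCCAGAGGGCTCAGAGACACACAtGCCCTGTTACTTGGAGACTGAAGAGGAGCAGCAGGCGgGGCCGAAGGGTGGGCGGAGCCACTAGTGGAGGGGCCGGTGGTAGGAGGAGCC

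Tcte3, another t-complex gene of dynein light chain type, was as uneven, with 149 and 604 FPKM, a fold of 4.06. In all, 4 of the 92 differed more than 2-fold between the libraries (4.35%), against 0.221% of the highly expressed genes with a peak. All 4 lie on chromosome 17 and are not separate loci. Dynlt1c and Dynlt1f overlap, and Tcte3 and a neighbouring gene model lie within 31.7 kb. Chromosome 7 held 12 of the 92, and chromosomes 6 and 17 held 10 each. Those on chromosome 17 (10.9%, interval 5.34% to 19.1%) included Rsph3b, a radial spoke protein, at 151 and 100 FPKM, and of the genes with a peak 5.96% lay there.

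Short genes came next. Hist1h1t, the testis linker histone H1t, had the most RNA of all 92, at 596 and 766 FPKM, in a body of 735 bases (mm9, chromosome 13, 23787680 to 23788414). The nearest peak lay 58916 bases away. Hist1h4c, a histone H4 gene next to it, stood at 115 and 182 FPKM. Mt1, a metallothionein, had 193 and 289 FPKM and a peak 4578 bases off. For Rplp1, a ribosomal stalk protein at 120 and 169 FPKM, a peak ended 15 bases from the body of 1228 bases. Hist1h1t and Hist1h4c had no RS WT peak, and their RNA in RS WT was low, at 8.76 and 9.90 and at 10.1 and 8.03 FPKM. Tnp1, the other transition protein, stood at 37.1 and 35.2 FPKM in a body of 825 bases, with no peak in either WT list. It alone of the 92 was under 10% of its RS WT level, at 3.59%.

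Of the 29 genes covered in RS WT, most were covered end to end there: 27 had at least 95% of the body under RS WT peaks. Several are large and strongly transcribed, and those named here were chosen after their values were seen. Ahctf1, the nucleoporin ELYS (59112 bases), stood at 44.2 and 50.7 FPKM in PD WT and 42.1 and 39.2 in RS WT. It was covered over 100% in RS WT, and the nearest PD WT peak was 54694 bases away. Csnk1a1, casein kinase 1 alpha, stood at 52.4 and 72.01 FPKM in PD WT and 55.8 and 61.0 in RS WT, also with 100% covered in RS WT. Others, all chosen from genes of high PD RNA, had less RNA in RS, where the peak was, than in PD, where there was none. Bub1b, the spindle checkpoint kinase BubR1 (43382 bases), stood at 26.3 and 24.9 FPKM in PD WT and 5.37 and 6.20 in RS WT, with 100% of the body covered in RS WT. Upf1, the helicase of nonsense-mediated decay, stood at 41.1 and 43.2 against 3.27 and 3.61 FPKM, and Pld6 at 32.9 and 33.3 against 4.07 and 4.81, both with 100% covered in RS WT. In the short pair Rps27 and Rps27rt, which overlap one another, Rps27 stood at 190.1 and 282 FPKM and was covered over 100% in RS WT.

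The remaining 41 genes had a median length of 24632 bases, and 35 of them had no RS WT peak. Cct3, a chaperonin subunit, had 151 and 195 FPKM over 24632 bases (mm9, chromosome 3, 88101057 to 88125688), with a peak 184 bases outside its body. Ubr4, a ubiquitin ligase of 108874 bases, stood at 21.9 and 22.9 FPKM with a peak 358 bases away. Ap2b1, the beta subunit of the clathrin adaptor AP2 (102337 bases), stood at 46.3 and 53.8 FPKM, and its nearest peak was 5 bases away. Sptan1, alpha spectrin (65891 bases), and Nup98, a nucleoporin (75981 bases), stood at 54.2 and 63.6 and at 32.9 and 36.7 FPKM, and neither had an RS WT peak. Of the other long genes, Golga4, a golgin at 56.7 and 60.3 FPKM, was covered over 37.3% in RS WT, and Cep120, a centriole protein at 22.2 and 25.6 FPKM, over 15.02%. Around the 92 as a whole a PD WT peak lay within 1 kb of 22 genes and within 5 kb of 39, and 25 had none within 50 kb.

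No-peak genes also sat side by side. With gaps of up to 100 kb, 32 of the 92 formed 14 groups, of up to 4 genes. Some are overlapping models of 1 locus, such as Rps27 and Rps27rt or Dynlt1c and Dynlt1f, and the same count was not made for genes with a peak. One group of 4, singled out after its values were seen, spans 45.8 kb of chromosome 7 (mm9, 133995947 to 134041792). It holds Ino80e, a subunit of the INO80 remodeller, Hirip3, which binds the histone chaperone HIRA, the kinase gene Taok2 and Tmem219. All 5 genes of at least 1 FPKM in that span lacked a peak in PD WT and in RS WT. Trnt1, which adds CCA to tRNAs, and Crbn, a ubiquitin ligase receptor, overlap on chromosome 6. Both, also picked out by their values, had RS WT peaks over 98.3% and 96.8% of the body, at 18.3 and 25.4 and at 19.4 and 27.3 FPKM in PD WT, and their nearest PD WT peaks lay 2000737 and 1983124 bases away.

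**Figure D4:**
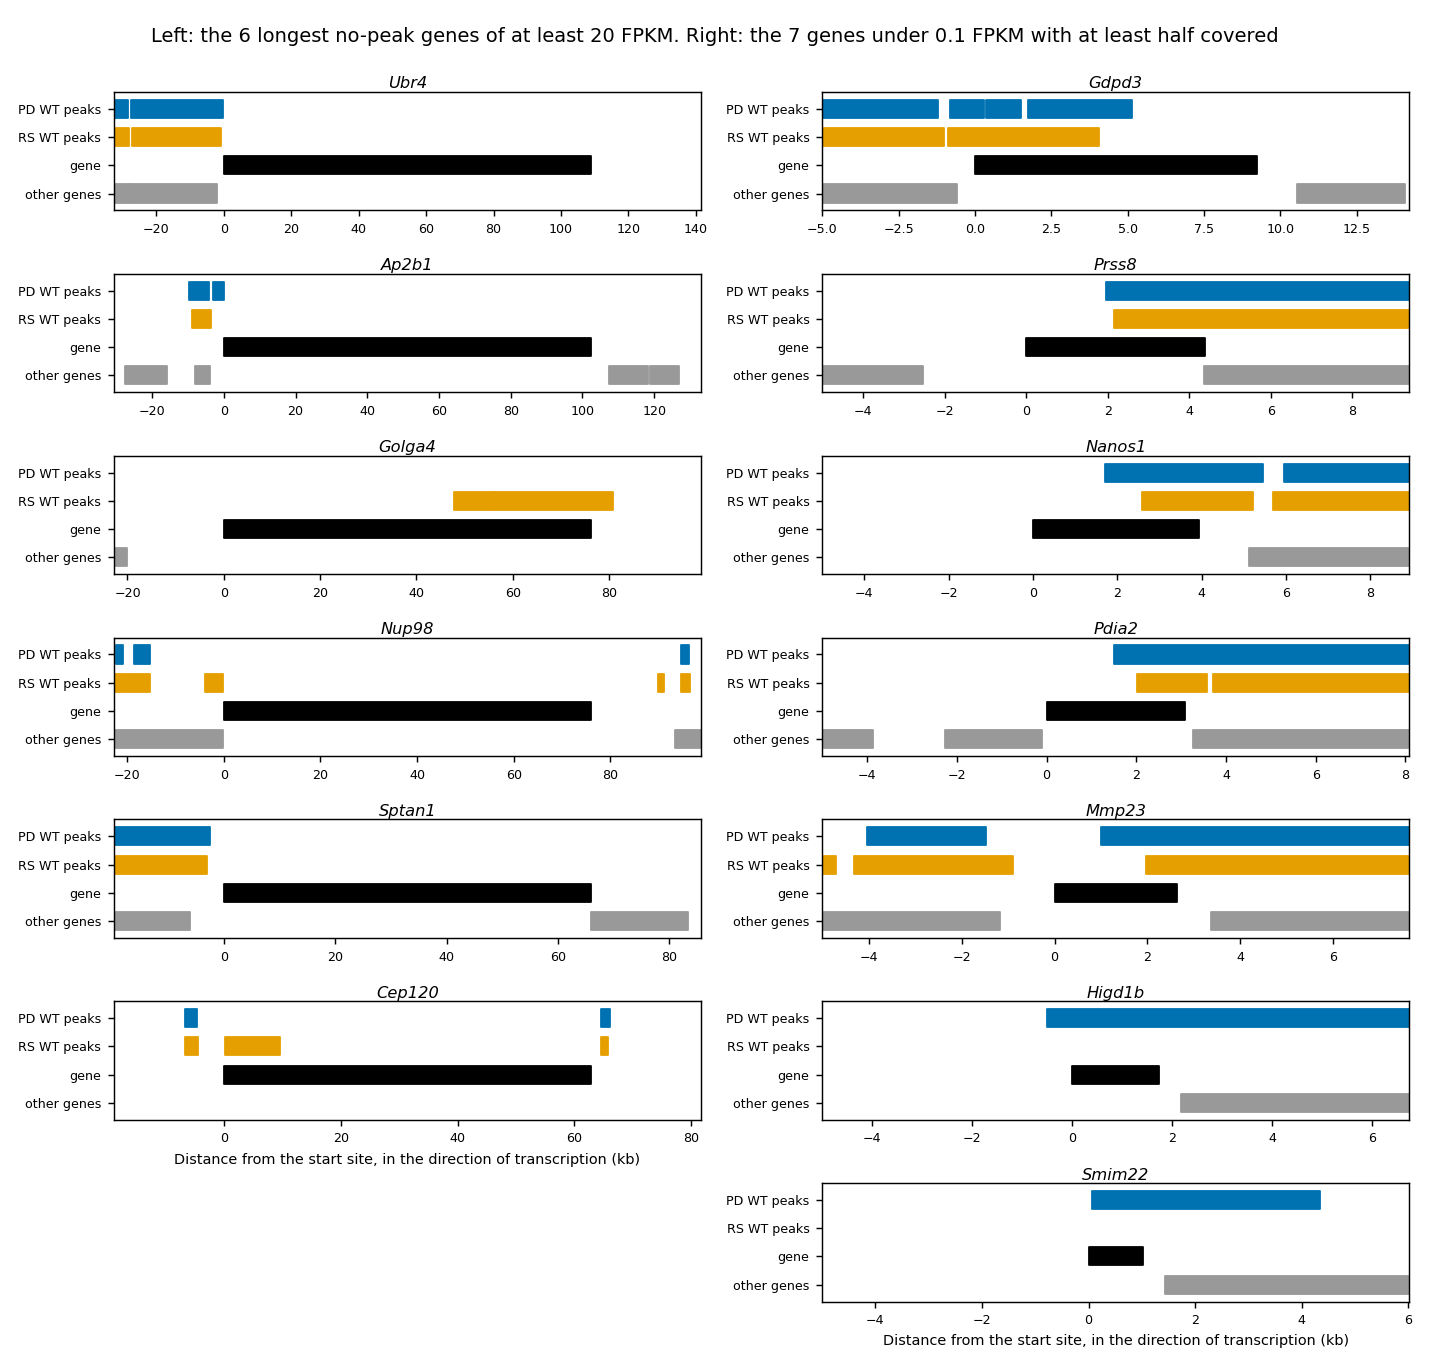
PD WT peaks (blue), RS WT peaks (orange), the gene named (black) and other genes (grey) by distance from the start site in the direction of transcription, in kb, with bars ending at the edge of each window. On the left are the 6 longest genes of at least 20 FPKM with no PD WT peak, where blue bars, absent from the Golga4 window, end outside the black one, and on the right the 7 genes under 0.1 FPKM with at least 50% covered, where the blue bar lies over part of the black gene, or all of Higd1b, and in all but Gdpd3 is 1 peak shared with the neighbour.

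At the other end, all 7 nearly silent genes with wide cover lay beside an expressed gene, and in 6 of them the cover was part of 1 peak that both genes share. Gdpd3 is the exception. Each of the 7 had a peak that also touched a neighbour of 8.81 to 47.0 FPKM, and in 7 of 7 it was the end of the neighbour, not its start, that faced the silent gene. In 6 of the 7 the pair lay on opposite strands, end to end. Higd1b, a hypoxia-induced family member (mm9, chromosome 11, 102697610 to 102699353), stood at 0.0266 and 0.0263 FPKM and lay wholly inside a peak of 36967 bases. That peak also covers Eftud2, a splicing GTPase at 23.6 and 24.9 FPKM, 432 bases away. Prss8, the protease prostasin, overlaps the end of Kat8, a histone acetyltransferase at 39.9 and 54.0 FPKM, and was covered over 55.6%.

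In the other 5 genes the gap to the neighbour ran from 187 to 1201 bases. Smim22, a small membrane protein at 0.0530 and 0.0524 FPKM, was covered over 93.7% beside Rogdi at 13.01 and 14.7. Nanos1, an RNA-binding protein of germ cells, had 56.4% covered at 0.119 and 0.0689 FPKM, beside the translation factor gene Eif3a at 15.3 and 9.51. Mmp23, a metalloproteinase, had 61.9%, beside Cdk11b, and Pdia2, a disulfide isomerase, 51.3%, beside Axin1, a scaffold of the Wnt pathway. Gdpd3, a lysophospholipase of 9232 bases, had 52.6% under 3 peaks. The one that also touched the kinase gene Mapk3 covered 293 bases of Gdpd3, and the other two, which touched no other gene, covered 1155 and 3411. Just outside the rule lay Irf7, Ctrl and Egfl8, at 0.116, 0.120 and 0.126 FPKM with at least 62.2% covered, and Rag2, Opn1sw and Scn3b, with 44.4%, 34.2% and 33.8% covered. With the first library alone 4 genes met the rule, and with the second alone 10.

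The position of neighbours was then counted for all silent genes, by a rule chosen after these 7 were seen, so that it is no separate support. Of 98 genes under 0.1 FPKM with the end of a gene of at least 5 FPKM within 2 kb, 39 had a peak (39.8%, interval 30.04% to 50.2%). Without the 6 of the 7 among them it was 33 of 92 (35.9%, 26.1% to 46.5%). With the start of such a gene within 2 kb it was 3 of 38 (7.89%, 1.66% to 21.4%), with overlap 7 of 34 (20.6%), and with no such gene 106 of 6891 (1.54%, 1.26% to 1.86%). Most marked silent genes were thus of the kind with no such neighbour, 106 of 155. Of the 155 silent genes with any peak, 111 were covered over less than 10%, and 79 (51.0%) shared a peak with a gene of at least 1 FPKM.

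The same rule in round spermatids gave many more exceptions. In RS WT 2503 autosomal genes reached 20 FPKM, and 562 of them had no RS WT peak (22.5%, against 3.90% in PD), and 54 genes under 0.1 FPKM were covered over 50% or more. The genes without a peak at 20 FPKM in both cell types numbered 33, which is 35.9% of the 92 in PD and 5.87% of the 562 in RS. Among 1563 genes of at least 20 FPKM in both, 1224 were covered over 50% in both and 33 had no peak in either. Another 81 were covered over 50% in PD with none in RS, and 19 were covered over 50% in RS with none in PD. The 2 lists come from separate libraries of unknown depth, 1 in each cell type.

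Wide peaks missing from the other list were common in one direction. Of PD WT peaks of 20 kb and over, 465 of 1950 touched no RS WT peak (23.8%, interval 21.97% to 25.8%), whereas in the middle, at 2 to 5 kb, 7.61% of 14394 did not. Setd2 itself was covered over 99.8% in PD WT and had no RS WT peak, with 5.24 and 5.58 FPKM there against 21.2 and 19.1 in PD WT. Of RS WT peaks of 20 kb and over, 69 of 2651 touched no PD WT peak (2.60%, 2.03% to 3.28%). Narrow peaks differed the other way, with 60.9% of RS WT peaks under 1 kb untouched against 27.4% of those in PD. Over genes of at least 20 FPKM in both cell types the shares at 20 kb and over were 22.7% of 490 in PD and 3.70% of 595 in RS, where RNA was high in each.

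**Figure D5:**
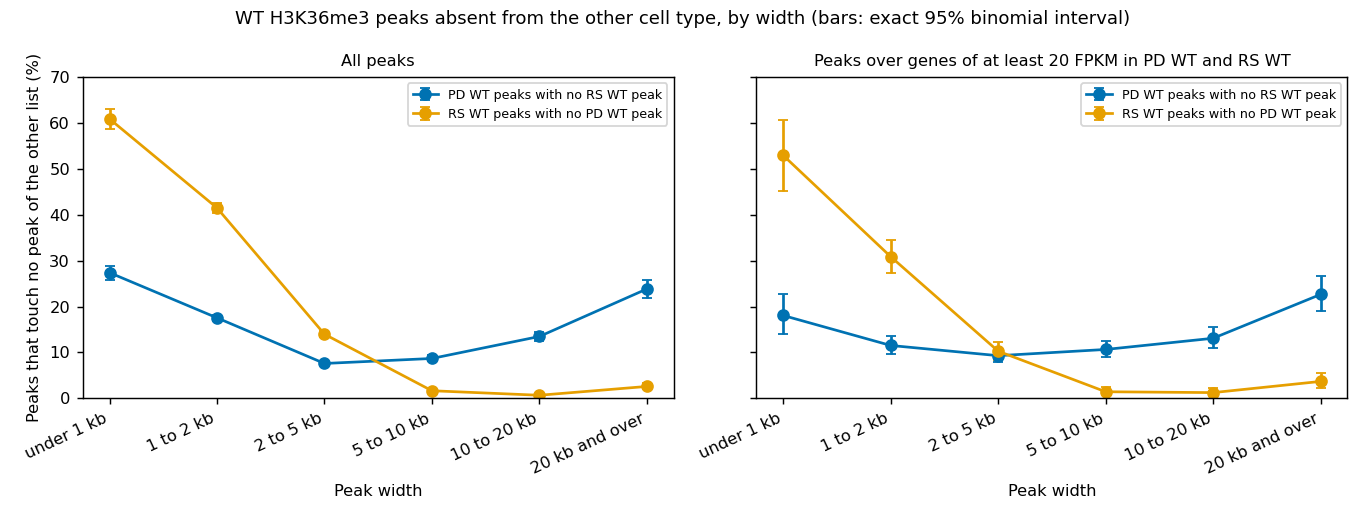
Percent of PD WT peaks that touch no RS WT peak (blue) and of RS WT peaks that touch no PD WT peak (orange) by peak width, for all peaks (left) and for peaks over genes of at least 20 FPKM in both cell types (right), with exact 95% binomial intervals. The orange line falls from 60.9% under 1 kb to 2.60% at 20 kb and over, while the blue line is lowest at 2 to 5 kb (7.61%) and stands at 23.8% at 20 kb and over.

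The last question was how the classes defined in WT stood when Setd2 was labelled as lost. Setd2 RNA over the whole gene model was 21.0 and 21.4 FPKM in PD Setd2KO and 12.1 and 8.67 in RS Setd2KO, against 21.2 and 19.1 in PD WT and 5.24 and 5.58 in RS WT. It was thus not lower in the libraries labelled Setd2KO, and in RS it was higher (log2 change 0.81, SE 0.15, limma adjusted p = 0.00162). A value over the whole gene does not check a deletion of part of it. The peak lists differed in number, since only 140 of the 9033 autosomal genes of at least 1 FPKM in PD WT had a peak in the PD Setd2KO list, against 7965 in PD WT. RNA was compared with limma on log2(FPKM + 1) over 11452 genes, with Benjamini-Hochberg adjusted p under 0.05 as the call. In PD this called 36.1% of all genes, 29.8% higher and 6.3% lower in Setd2KO, and in RS 42.7%, 20.9% higher and 21.8% lower. The PD classes and the PD contrast share the PD WT libraries, and the RS contrast does not.

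The highly expressed genes were read with and without a peak. Of the 92 genes with no peak, 8 were higher and 9 lower in PD Setd2KO (18.5%), with a median log2 change of 0.07. Of the 2266 with a peak, 202 were higher and 162 lower (16.1%), with a median of 0.09, where the median of all genes was 0.19. In RS 15 of the 92 were higher and 7 lower (23.9%, median 0.12), and 536 and 193 of the 2266 (32.2%, median 0.16), where the median of all genes was 0.02. The difference between the classes was not tested. Without the second PD WT library 35 of the 92 were called in PD, without either PD Setd2KO library 5, with the 2 PD groups fitted alone 7, and with no filter on low values 10. In RS it was 6 without the first WT library, and 9 and 11 without the first and the second Setd2KO library. The split of PD calls moved with the scaling. For the 92 genes upper-quartile scaling gave 1 higher and 19 lower and quantile normalization 10 and 17, and over all genes 82.5% of the PD calls were higher as deposited, 52.8% after upper-quartile scaling and 45.7% after quantile normalization.

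Classes of intermediate RNA were read in the same way, as a description, since the PD WT libraries both set the class and enter the PD contrast. Among 976 genes of 1 to 20 FPKM with no peak, 442 were higher in PD Setd2KO (45.3%) and 97 lower (9.94%), with a median log2 change of 0.31. For the 4147 genes of this range with at least 50% covered it was 1099 (26.5%) and 312 (7.52%), with a median of 0.18. The classes differ in RNA within the range. Of the 4147, 1481 stood at 1 to 5 FPKM and 2666 at 5 to 20. A peak was missing more often at 1 to 5 FPKM, where 75.9% of genes had one, than at 5 to 20, with 94.9%. What part this has in the counts was not tested. In RS, whose libraries did not set the class, both classes had more genes lower than higher. Of the 976, 162 were higher (16.6%, background 20.9%) and 253 lower (25.9%, background 21.8%), with a median of −0.15. Of the 4147, 697 were higher (16.8%) and 945 lower (22.8%), with a median of −0.02. For the 976 genes the calls in PD stayed more often higher than lower after upper-quartile scaling (339 and 141) and quantile normalization (293 and 200), while for the 4147 they turned to 387 and 676, and 471 and 752. Round spermatid transcripts also differed between the genotypes. The 15 markers summed to 222 and 141 FPKM in PD Setd2KO, against 83.3 and 103 in PD WT. In RS they summed to 1245 and 1640 FPKM in Setd2KO, against 2010 and 1882 in WT. The RS level to which the next share refers was thus lower in Setd2KO, by the sums. The median level of the 15 round spermatid markers, as a share of their RS mean in the same genotype, was 13.6% and 7.56% in the PD Setd2KO libraries, against 1.56% and 2.65% in PD WT. Their part in the count was not tested. Without the first or the second PD Setd2KO library the calls over all genes fell to 2582 and 2589 from 4130, and in RS without the first WT or the first Setd2KO library to 2957 and 3092 from 4889. For the 4147 genes the PD calls then numbered 827 and 695 against 1411, and the RS calls 878 and 897 against 1642. For the 976 the RS calls were 265 without the first WT library, against 415.

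Single genes of the 92 that passed were few. In PD the lowest adjusted p-values belonged to Izumo4, a sperm protein of the Izumo family, which went from 53.9 and 62.6 FPKM in WT to 31.6 and 33.0 in Setd2KO. Its log2 change was −0.83 (SE 0.14, limma adjusted p = 0.00168). Hist1h4h, a histone H4 gene, went from 51.5 and 83.0 to 134 and 130.4 FPKM (log2 change 1.00, SE 0.21, adjusted p = 0.00418). Near-identical histone genes can share reads, and whether Hist1h4h does was not tested. Erp29, a chaperone of the endoplasmic reticulum, fell by 0.69 (SE 0.16, adjusted p = 0.00710) and Ino80e fell by 0.55 (SE 0.14, 0.00972). Both calls were lost without the first PD Setd2KO library (0.0559 and 0.0932). Skiv2l2, the exosome helicase Mtr4, was higher by 0.66 (SE 0.16, 0.00972), a call lost without the second PD Setd2KO library (0.0550) and after upper-quartile scaling (0.0683).

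In RS the gene of the 92 with the lowest adjusted p was Tnp1, from 1067 and 948 FPKM in WT to 302 and 283 in Setd2KO, a log2 change of −1.78 (SE 0.19, limma adjusted p = 4.58e-05). Bub1b went from 5.37 and 6.20 to 15.04 and 11.3 FPKM (1.05, SE 0.15, adjusted p = 0.000271), and Rasl2-9, a Ran-like gene of the testis, from 60.1 and 68.0 to 146 and 140.5 (1.15, SE 0.18, 0.000538). Nap1l4, a nucleosome assembly protein, went from 10.1 and 11.7 to 19.6 and 18.4 FPKM (0.75, adjusted p = 0.00140). Ptpdc1, a phosphatase of the cilium, was higher by 0.69 (SE 0.15, 0.00403), a call lost without the first RS WT library (0.0544). The WT and Setd2KO values of these 5 genes did not overlap in RS, which is no separate support, since they were picked for a low adjusted p. The share of all genes without overlap was not counted. Of the 7 silent genes with wide cover, none passed the filter of 1 FPKM in a group, so none was tested.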

How the data were processed

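The RNA values that the authors deposited are FPKM, made with CASAVA, TopHat2, Cufflinks and Cuffdiff against mm9, per the submitters' processing notes, from polyadenylated RNA and a directional kit, per the labels' protocols. For H3K36me3 the authors deposited 1 peak list per group with a score for each peak. CASAVA, Bowtie and bedtools are named in the submitters' processing notes. The labels' protocols mention a chromatin spike-in. Its use in making the lists, and the ChIP depth, are not given in the sources used here. Input libraries were not analysed here.

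Gene intervals came from the PD WT table, and 1056 genes have another interval in another table. A gene had a peak when at least 1 base of its body was covered. Whole reads were recovered from FPKM of genes under 1300 bases, with a tolerance of 0.03 (90.2% and 91.9% of low values whole in PD WT). Neither counts nor reads entered a test. Genes of at least 1 FPKM in at least 1 group were fitted with limma 3.58.1 in R 4.3.3 on log2(FPKM + 1), with an intensity trend and 1 mean for each of the 4 RNA groups, and the code was tested on simulated data. Fold changes on this scale understate those of low genes.

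The members and gene lists were chosen with earlier results of these data known. By rule the text names the 12 exceptions with most RNA, the 6 longest, all silent ones, the 3 genes nearest each threshold, up to 3 members of a list with most RNA, list members that are exceptions, the 3 widest covers of an FPKM class, and the 5 exceptions with the lowest adjusted p per contrast. Clone and model names are left out, and 1 item is not reported here. Replicate numbers did not pair the libraries, since same-numbered libraries of different groups had correlations of their deviations from −0.31 to 0.07.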

Additional observations from a re-analysis of the deposited data

Results flagged for a closer look

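For 6 of the genes named for either contrast, all from the 92 highly expressed with no PD WT peak, the change in Setd2KO differed between the cell types. The test was of the difference itself (limma interaction, Benjamini-Hochberg adjusted p under 0.05). It called 35.1% of all 11452 genes, a share that a number of genes picked for low adjusted p cannot be set against. RS minus PD, the log2 difference was −1.29 for Tnp1 (adjusted p = 0.00433), 1.05 for Rasl2-9 (0.00905), 0.79 for Bub1b (0.0135), 0.69 for Nap1l4 (0.0179), −0.69 for Skiv2l2 (0.0390) and 0.62 for Ptpdc1 (0.0452). Skiv2l2 went from 24.8 and 18.4 to 34.2 and 34.6 FPKM in PD, and from 41.6 and 46.5 to 40.2 and 46.6 in RS. Nap1l4 stood at 51.9 and 57.6 FPKM in PD WT and 54.6 and 59.5 in PD Setd2KO. Bub1b stood at 26.3 and 24.9 FPKM in PD WT and 30.8 and 30.8 in PD Setd2KO. These genes were picked for a low adjusted p in 1 of the 2 contrasts, so their number is a description. Others of the 92, not named for a contrast, also passed the limma interaction. They were Ghrl (0.89, adjusted p = 0.00867), Cdkn2d (0.83, 0.0152) and a gene with a clone name (−1.04, 0.0230).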

How the results depend on the processing

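The 92 genes of at least 20 FPKM with no peak numbered 84 and 100 with the RNA of 1 library alone. They were 100 with peaks of a score of at least 60, 120 where a peak had to cover 10% of the body, and 67 among genes that overlap no other. With a score of at least 60 the share of genes of at least 1 FPKM with a peak was 87.3%, and where 10% of the body had to be covered 83.5%, against 88.2%. That same rule gave 0.623% of genes under 0.1 FPKM, against 2.19%. The 7 genes under 0.1 FPKM with wide cover numbered 2 when 90% of the body had to be covered, and between 4 and 10 with 1 library alone. The PD Setd2KO contrast called 2707 genes when its 2 groups were fitted alone, and between 2582 and 4586 with 1 library left out, against 4130. In RS it was between 2957 and 4204 against 4889. With the replicate block the calls were 3894 in PD and 4695 in RS, and 17 and 18 of the 92. Of these, those lower in RS went from 7 to 4, and the other counts moved by less than 1.5 times. Of the 92, with 1 library left out, between 5 and 35 were called in PD and between 6 and 16 in RS, and in PD 7 with 2 groups fitted alone, 10 with no filter on low values and 27 after quantile normalization, against 17. Among the 10 genes tested by name, the direction never turned. The calls of genes at 1 to 20 FPKM under these settings were an addition made after the data were seen. Depth of the ChIP libraries is unknown, so whether a missing peak is a gene without the mark cannot be told from 1 list.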
